A study of Mus musculus with 8 samples.

Results

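Supporting cells are the somatic cells of the gonad that surround germ cells, namely Sertoli cells in the testis and granulosa cells in the ovary. This account describes where the zinc finger protein ZGLP1 was located at 10 genes known for these cells. The genes, listed by symbol, were Amh, Sox9, Foxl2, Nr5a1, Wt1, Fst, Rspo1, Cyp19a1, Dmrt1 and Fgf9, and all 10 were found among the 21900 protein-coding genes of the RefSeq annotation of GRCm38. A gene was described by the ZGLP1 peak summits inside it, within 10 kb of it and within 50 kb of it.

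The cells were mouse embryonic stem cells (ESCs) and the primordial germ cell-like cells (PGCLCs) made from them in culture, of a C57BL/6 x DBA2 background. All carried a V5-tagged Zglp1 that was overexpressed on addition of doxycycline (Dox), so the protein mapped was the introduced one. Chromatin bound to it was collected with a rabbit polyclonal antibody against V5. PGCLCs were collected on culture day 7 or 8 (c7, c8) after Dox only, or after Dox with retinoic acid (RA), both given from day 3, and were sorted for the SC reporter and mCherry. ESCs received Dox and RA for 24 h and were sorted for mCherry. The 5 ChIP libraries were c7 and c8 PGCLCs with Dox only, c7 and c8 PGCLCs with Dox and RA, and ESCs with Dox and RA, each made from an equal number of cells. The 3 input libraries came from c8 PGCLCs with either treatment and from ESCs. Neither cell type is a supporting cell, and positions of a protein on chromatin do not measure whether a gene is expressed, so no marker of cell identity was checked.

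The measurement was a single list of 32927 summits, each 1 base, with no height and no library. Treatments, days and cell types were therefore not compared, there was no replicate and no test, and read depth is not known. Where no summit is listed, ZGLP1 may be absent or its signal too weak for the authors' peak calling. Counts at the 10 genes are set beside the same count over all protein-coding genes and are descriptions.

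In the early gonad a common supporting cell precursor takes the Sertoli or the granulosa fate. The nuclear factors WT1 and NR5A1 act before this choice in both sexes. In the testis SRY switches on Sox9, the secreted signal FGF9 sustains it, and Sertoli cells then make anti-Müllerian hormone from Amh and keep their identity through DMRT1. In the ovary the secreted WNT amplifier RSPO1 and the forkhead factor FOXL2 support the granulosa fate, follistatin (Fst) binds activins, and aromatase (Cyp19a1) converts androgens to oestrogens.

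Of the 10 genes, 8 had a summit inside the gene, where 54.5% of protein-coding genes did. With 10 kb added on each side, 9 of 10 had a summit, against 68.3%. Within 50 kb all 10 had at least 1, against 78.2%. A summit within 1 kb of either gene end was found at 6 of 10 genes, Sox9, Amh, Dmrt1, Foxl2, Fst and Wt1, against 52.9%. In a list of 10 genes a single gene changes such a share by 10 percentage points, and these shares are not set apart from the background by any test.

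The 10 genes held 25 summits inside or within 10 kb, with a median of 2 per gene, where the median over all protein-coding genes was 1. Within 50 kb they held 56, at 56 different positions, with a median of 4.5 against 3. Dmrt1 alone accounted for 8 of the 25 and for 16 of the 56. The number per gene ranged from 0 at Rspo1 to 8 at Dmrt1 inside or within 10 kb, and every other member had 1, 2 or 3. The 25 became 20 with summits joined within 1 kb, and 19 without those within 1 kb of another gene's end. Medians over all protein-coding genes were not computed under these rules.

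**Figure D1:**
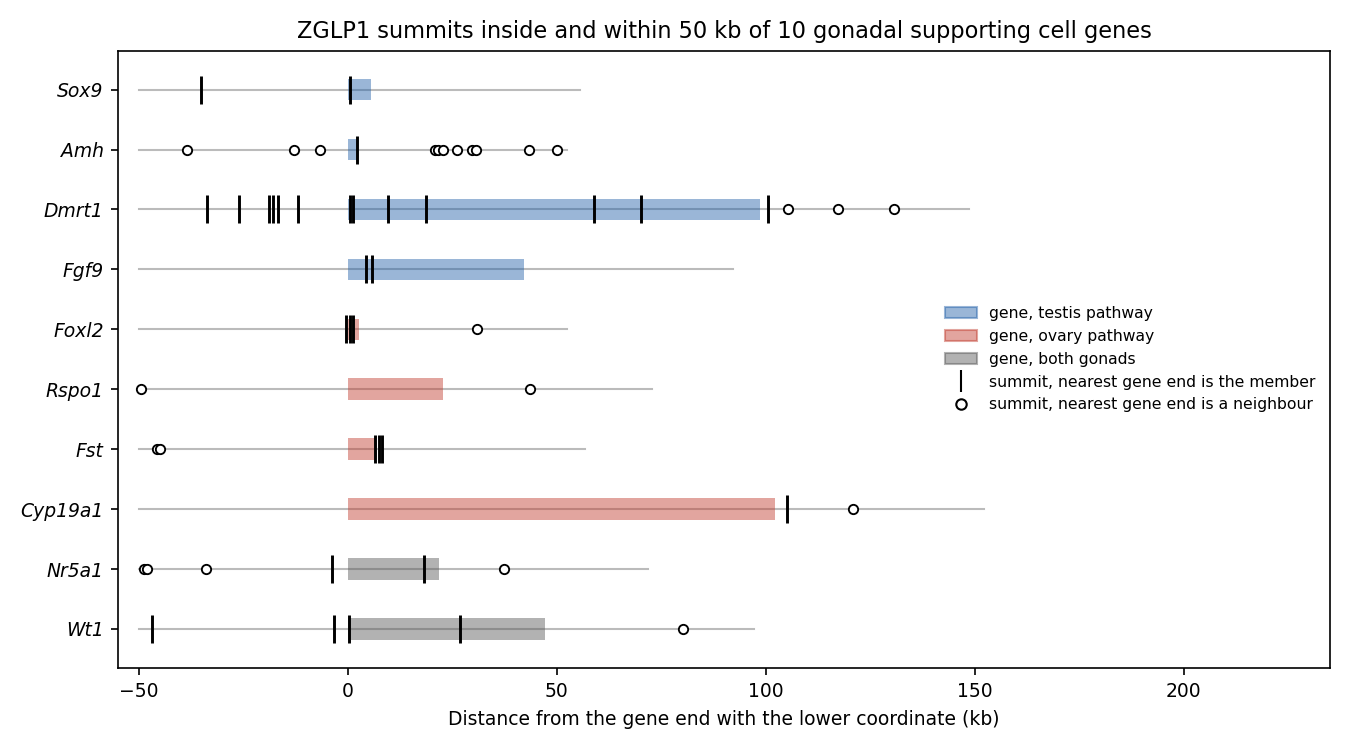
Map of the 10 genes, each drawn to scale from its end with the lower coordinate (x axis, kb), with the flanking 50 kb as a grey line. Black ticks are summits whose nearest protein-coding gene end belongs to the gene itself and open circles those nearest to a neighbour; Dmrt1 carries 16 summits, and the Rspo1 and Cyp19a1 bodies carry none.

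Many summits in the flanks lay at other genes. Of the 56 summits, 31 had a member as the nearest protein-coding gene end and 25 had a neighbour. Inside or within 10 kb only 2 of 25 were nearer to a neighbour, 1 at Amh and 1 at Dmrt1. Between 10 and 50 kb the number was 23 of 31, and 9 of these 31 lay within 1 kb of a protein-coding neighbour's end. The same counts were not made over all protein-coding genes. A summit farther from a gene is by construction more often nearer to another, so this difference is not particular to the members.

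The genes differed in length, and over all protein-coding genes longer ones held a summit more often. All 4 members under 10 kb long (Sox9, Amh, Foxl2 and Fst) had a summit inside, where 33.5% of protein-coding genes of that length did. Of the 4 members from 10 to 50 kb long, Fgf9, Nr5a1 and Wt1 had one and Rspo1 did not, so 3 of 4, against 60.8%. Of the 2 members of 50 kb or longer, Dmrt1 had one and Cyp19a1 did not, so 1 of 2, against 76.7%. These length classes were chosen after the counts were seen.

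**Figure D2:**
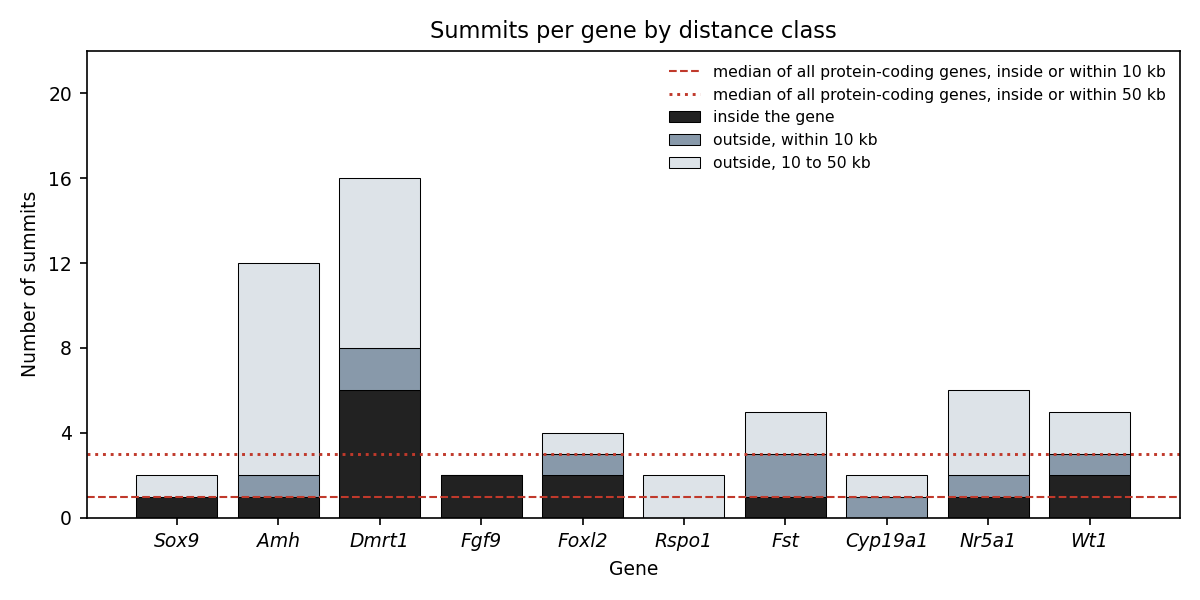
Number of summits (y axis) at each of the 10 genes (x axis), stacked by class: inside the gene, outside within 10 kb, and outside from 10 to 50 kb. Dashed and dotted lines are the medians over all protein-coding genes, 1 inside or within 10 kb and 3 inside or within 50 kb; Amh reaches 12 only through the 10 summits between 10 and 50 kb.

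Among the testis genes, Sox9 encodes the HMG-box factor that directs Sertoli cell differentiation (chromosome 11, 112782210 to 112787757, 5548 bases). It had 1 summit inside, at 112782792, which lies 582 bases from the end with the lower coordinate. The only other summit within 50 kb was at 112747076, 35134 bases below the gene. No other protein-coding gene lay near either position, the closest being Slc39a11, 462059 bases from the summit inside Sox9. Sox9 is known for enhancers spread over a long gene-poor stretch, and within 100 kb it had no further summit, so the count remained 2.

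Fgf9 encodes the fibroblast growth factor that maintains Sox9 expression in the XY gonad (chromosome 14, 58070671 to 58112854, 42184 bases). It had 2 summits, both inside, at 58075081 and 58076483, 1402 bases apart. They were 4410 and 5812 bases from the lower end of the gene. No summit was found outside the gene within 50 kb on either side. In the RefSeq promoter table Fgf9 has a start at 58072686 on the plus strand, and the summits lay 2395 and 3797 bases downstream of it. The window from 250 bases before to 50 after this start, at chr14:58072436-58072735, is shown because both summits lie beyond it. Capitals mark the letters GATA on either strand, which read TATC on the reverse:
Fgf9: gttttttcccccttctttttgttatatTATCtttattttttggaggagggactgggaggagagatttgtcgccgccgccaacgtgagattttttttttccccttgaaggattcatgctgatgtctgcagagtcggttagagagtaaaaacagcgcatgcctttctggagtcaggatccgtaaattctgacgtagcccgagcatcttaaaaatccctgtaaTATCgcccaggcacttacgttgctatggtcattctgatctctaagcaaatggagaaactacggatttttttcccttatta
The window held GATA at 2 places, and 1 of these was part of the longer AGATAA, a form known for GATA factors. Its G and C content was 42.7%, and the median over all protein-coding windows was 56.3%.

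Amh encodes the hormone that makes the Müllerian ducts regress (chromosome 10, 80805240 to 80807679, 2440 bases). It had 1 summit inside, at 80807446, 233 bases from its upper end and 1048 bases from the next gene, Jsrp1. The other summit within 10 kb, at 80798436, was 6804 bases from Amh but only 190 bases from Plekhj1. The next 10 kb to 50 kb on both sides held 10 summits, all of them nearest to other protein-coding genes: Dot1l, Oaz1, Lingo3, Lsm7 and Sppl2b. The 3 at Oaz1, at 80826166, 80826813 and 80828051, lay 490, 157 and 1239 bases from its nearer end, and the one at Sppl2b, at 80855287, lay 45 bases from it. Of the 12 summits within 50 kb, 1 had Amh as its nearest gene. Within 50 kb, 8.24% of protein-coding genes had as many summits as Amh or more.

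Dmrt1 encodes a DM-domain factor that keeps Sertoli cells from changing to a granulosa state and is also known to act in germ cells (chromosome 19, 25505618 to 25604328, 98711 bases). It had the most summits of the 10 genes, 6 inside and 2 outside within 10 kb. Of all protein-coding genes, 2.26% had 8 or more in that range. That share covers genes of all lengths, whose median length was 17.1 kb, while Dmrt1 spans 98.7 kb. Inside the gene the first pair lay 473 and 1247 bases from the lower end, at 25506091 and 25506865. The other 4 were spread through the gene, at 25515163, 25524250, 25564579 and 25575666. Only the summit at 473 bases was within 1 kb of an end of Dmrt1.

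Below Dmrt1 a further 6 summits lay 11934 to 33814 bases away, between 25471804 and 25493684, with no other protein-coding gene end nearer. The closest of them, at 25493684, was 149 bases from the end of the pseudogene Gm5249. Above the gene, the summit at 25606147 was 1819 bases from Dmrt1, and that at 25610929 was nearer to its paralogue Dmrt3, at 683 bases. Another 2, at 25622855 and 25636264, were also nearest to Dmrt3. Of the 16 summits within 50 kb, 13 had Dmrt1 as their nearest protein-coding gene. If only summits within 10 kb of either end were counted, Dmrt1 would have 5, since 3 of the summits inside lie deeper.

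Among the ovary genes, Foxl2 is a short gene of the forkhead family (chromosome 9, 98955607 to 98958126, 2520 bases). It had 3 summits close together. The first, at 98955235, was 372 bases below the gene, and the others, at 98956171 and 98956800, were 564 and 1193 bases inside it. Successive summits were 936 and 629 bases apart, and all 3 became 1 when summits closer than 1 kb were joined. The promoter table puts the start of Foxl2 on the plus strand at its lower end, so the summits fell 372 bases before and 564 and 1193 bases after the start. The first summit was also 75 bases inside Foxl2os, a noncoding gene read in the opposite direction whose start is at 98955310. The RefSeq window at chr9:98955357-98955656 lies between the first and second summit and is shown for that reason, with any GATA in capitals:
Foxl2: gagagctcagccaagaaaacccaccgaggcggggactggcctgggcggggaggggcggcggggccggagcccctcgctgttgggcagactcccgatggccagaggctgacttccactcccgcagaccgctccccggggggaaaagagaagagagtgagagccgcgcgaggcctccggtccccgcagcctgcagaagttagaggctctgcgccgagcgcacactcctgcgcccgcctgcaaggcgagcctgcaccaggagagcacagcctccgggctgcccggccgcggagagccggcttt
It held no GATA on either strand. Its G and C content was 71.3%, and 10.3% of protein-coding windows reached that level. It held 27 CpG dinucleotides, where the median window held 13. The only other summit within 50 kb, at 98986458, was 85 bases from the neighbouring gene Faim.

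Rspo1 was the only member with no summit inside or within 10 kb (chromosome 4, 124986401 to 125009102, 22702 bases). The nearest, at 125029935, was 20833 bases above the gene and 54 bases from the end of Gnl2. The next, at 124936852, was 49549 bases below it and 65 bases from Cdca8. Between these positions, 93083 bases apart, no summit was listed. Of all protein-coding genes 71.3% had a summit closer to an end than Rspo1 or as close. The Rspo1 window at chr4:124986180-124986479, plus strand, is shown as that of a member without a summit nearby:
Rspo1: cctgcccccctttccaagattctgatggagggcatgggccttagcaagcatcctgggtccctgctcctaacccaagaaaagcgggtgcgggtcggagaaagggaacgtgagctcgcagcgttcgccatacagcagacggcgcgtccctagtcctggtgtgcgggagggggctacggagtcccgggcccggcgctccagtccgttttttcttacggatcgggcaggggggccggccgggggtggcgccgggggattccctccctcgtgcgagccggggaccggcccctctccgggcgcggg
Like that of Foxl2 it held no GATA, was rich in G and C (69.0%) and held many CpG dinucleotides (29). Foxl2 had 3 summits inside or within 10 kb and Rspo1 none, but neither of the 2 windows itself held a summit. Whether base composition goes with summits was not tested. For comparison, the window of 9930104L06Rik, a gene at the lower edge of the Rspo1 neighbourhood, held the summit at 124936852. At chr4:124936798-124937097, plus strand, it is printed with the 21 bases centred on the summit in capitals:
9930104L06Rik: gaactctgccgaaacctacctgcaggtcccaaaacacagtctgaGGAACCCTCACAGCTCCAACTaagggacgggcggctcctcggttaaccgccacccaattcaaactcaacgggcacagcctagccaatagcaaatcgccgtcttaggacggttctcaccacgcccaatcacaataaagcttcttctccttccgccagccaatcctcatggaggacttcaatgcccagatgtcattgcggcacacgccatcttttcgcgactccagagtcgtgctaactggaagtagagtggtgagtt
This window also held no GATA, had a G and C content of 54.0% and held 16 CpG dinucleotides.

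Fst encodes a secreted protein that binds and blocks activins (chromosome 13, 114452262 to 114458989, 6728 bases). Its 3 summits gathered at the upper end of the gene. That at 114458805 was 184 bases inside, and those at 114459778 and 114460318 were 789 and 1329 bases outside. They were 973 and 540 bases apart and, like those of Foxl2, became 1 when joined within 1 kb. Another 2 summits, at 114406555 and 114407133, were 45707 and 45129 bases below the gene and nearest to Ndufs4 among protein-coding genes, at 18461 and 19039 bases. The summit inside Fst was the closest to a gene end among the 10 members, and 31.5% of protein-coding genes had one as close.

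Cyp19a1 is a long gene (chromosome 9, 54165937 to 54268164, 102228 bases) that is known to use different first exons in different tissues. No summit lay within its span. The nearest, at 54271085, was 2921 bases above its upper end, which the promoter table gives as an upstream start on the minus strand. This summit was closer to the pseudogene Gm51675, at 1346 bases. The other within 50 kb, at 54286818, was 332 bases from Gldn. The table holds 3 starts of Cyp19a1, at 54268164, 54228914 and 54193743, and the nearest summit lay 2921, 42171 and 77342 bases upstream of them. The window of the first, at chr9:54268115-54268414 on the minus strand, is shown as the one closest to a summit, with GATA in capitals:
Cyp19a1: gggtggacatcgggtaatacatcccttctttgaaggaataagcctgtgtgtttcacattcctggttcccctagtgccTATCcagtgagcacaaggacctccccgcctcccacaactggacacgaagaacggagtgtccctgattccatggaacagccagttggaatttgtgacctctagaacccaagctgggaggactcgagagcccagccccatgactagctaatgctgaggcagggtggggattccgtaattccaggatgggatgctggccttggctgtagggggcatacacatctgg
It held 1 GATA, read TATC on this strand, and 6 CpG dinucleotides, with a G and C content of 54.7%. The other 2 windows held 1 and 0 GATA, 6 and 2 CpG dinucleotides, and 38.3% and 37.7% G and C.

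**Figure D3:**
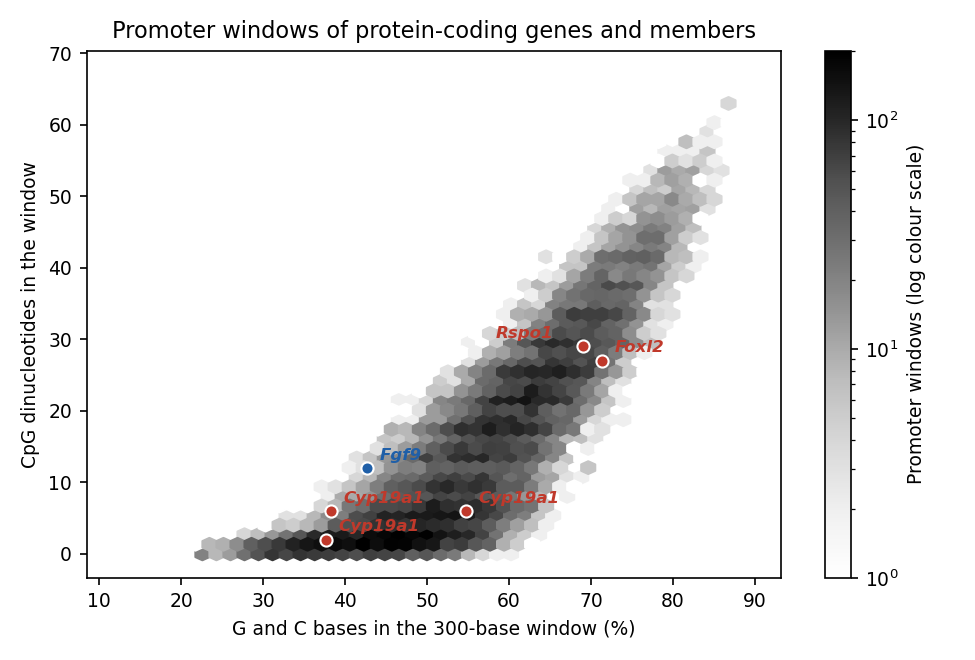
G and C content (x axis, percent) and number of CpG dinucleotides (y axis) of the 300-base promoter windows of protein-coding genes, as a grey density on a log colour scale, with the 6 windows of the 4 members in the table as coloured points. Foxl2 and Rspo1 lie together at 71.3% and 69.0% with 27 and 29 CpG, and the 3 Cyp19a1 windows have at most 6.

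Windows were found for 4 of the 10 members, 6 windows in all, and Amh, Sox9, Dmrt1, Fst, Nr5a1 and Wt1 had no entry. Of the members without an entry, all but Nr5a1 had a summit within 1 kb of a gene end. None of the 6 windows, of which 3 were of Cyp19a1, held a summit, where 25.2% of the 21263 windows of protein-coding genes did. GATA on either strand stood in 3 of the 6, the one of Fgf9 and 2 of Cyp19a1, against 53.2% of all windows. AGATAA stood in 1 of 6, that of Fgf9, against 9.65%. These are matches of letters and do not show sites bound by ZGLP1.

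Among the genes used in both sexes, Nr5a1 encodes steroidogenic factor 1, a nuclear receptor needed for gonads and adrenals to form (chromosome 2, 38692656 to 38714542, 21887 bases). It had 1 summit inside, at 38710948, which was 3594 bases from the upper end. A second, at 38688792, was 3864 bases below the gene and 956 bases from the pseudogene Adgrd2-ps. The 4 further summits within 50 kb were nearest to other protein-coding genes, 3 to the proteasome subunit gene Psmb7 and 1 to Nr6a1. Those at 38643900 and 38644463 were 52 and 511 bases from an end of Psmb7. Neither end of Nr5a1 had a summit within 1 kb.

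Wt1 encodes a zinc finger factor of the gonad and kidney (chromosome 2, 105126529 to 105173614, 47086 bases). It had 2 summits inside, at 105126777, 248 bases from the lower end, and at 105153254, which is 26725 bases from that end and 20360 bases from the other. A summit at 105123148 was 3381 bases below the gene, within Wt1os, a noncoding gene beside Wt1. Another, at 105079682, was 46847 bases below Wt1 and 3144 bases from the far end of Wt1os, and the last, at 105206699, was 33085 bases above Wt1. Of the 5 summits within 50 kb, 4 had Wt1 as their nearest protein-coding gene. The RefSeq window of Wt1os, at chr2:105126461-105126760 on the minus strand, covers the lower end of Wt1 and stops 17 bases short of the summit, and is shown as the sequence beside it, with any GATA in capitals:
Wt1os: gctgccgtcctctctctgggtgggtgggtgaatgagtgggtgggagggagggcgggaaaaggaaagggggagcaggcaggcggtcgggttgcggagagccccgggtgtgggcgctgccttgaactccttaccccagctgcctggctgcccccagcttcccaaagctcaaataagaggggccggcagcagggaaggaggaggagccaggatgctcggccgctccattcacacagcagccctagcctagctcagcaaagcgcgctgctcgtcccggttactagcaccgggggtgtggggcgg
It held no GATA, had a G and C content of 66.7% and held 16 CpG dinucleotides.

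**Figure D4:**
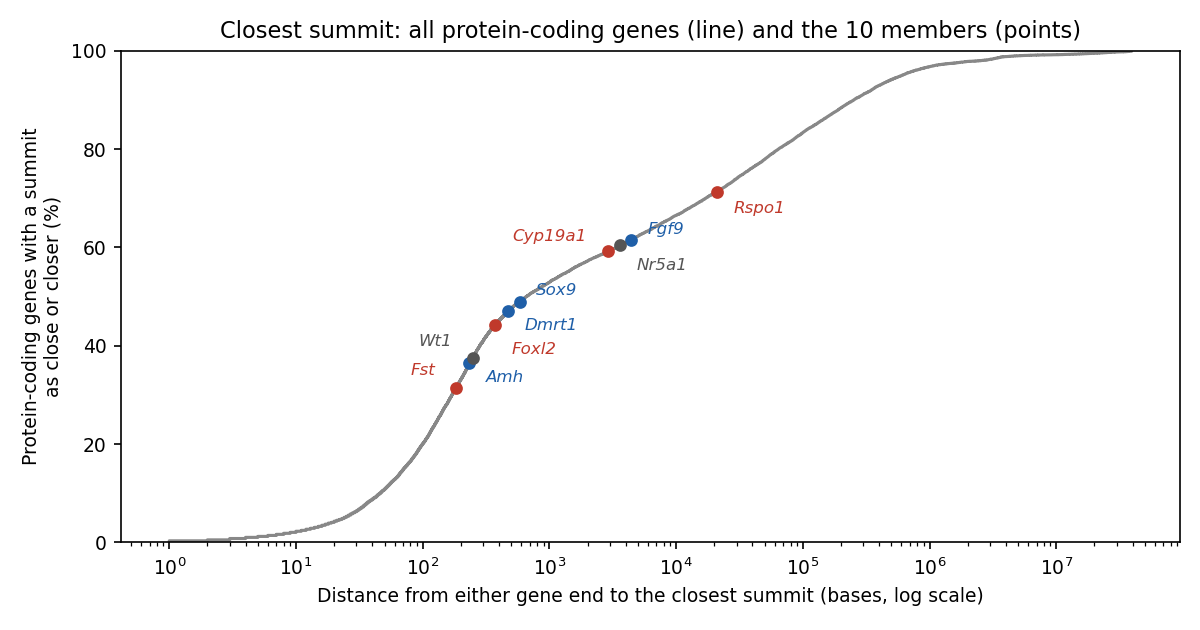
Share of protein-coding genes (y axis, percent) with a summit within a given distance of either gene end (x axis, bases, log scale); the line is all genes and the points are the 10 members. The 6 members with a summit within 1 kb lie from 184 bases (Fst) to 582 bases (Sox9), and Rspo1 lies at 20833 bases.

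Where a member had a summit within 1 kb of an end, the closest one was 184 bases away at Fst, 233 at Amh, 248 at Wt1, 372 at Foxl2, 473 at Dmrt1 and 582 at Sox9. All but that of Foxl2 lay inside the gene, and Foxl2 had its next, at 564 bases, inside. The 4 remaining genes had their closest summit at 2921 bases (Cyp19a1), 3594 bases (Nr5a1), 4410 bases (Fgf9) and 20833 bases (Rspo1). The median over the 10 members was 527.5 bases, and over all protein-coding genes it was 655 bases.

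By role, the 4 testis genes had 13 summits inside or within 10 kb, of which 8 were at Dmrt1, and the 4 ovary genes had 7. The 2 genes of both sexes had 5. The median was 2 per gene for the testis genes, 2 for the ovary genes and 2.5 for the others. All 4 testis genes, 2 of 4 ovary genes (Foxl2 and Fst) and both others had a summit inside, where 54.5% of all protein-coding genes did. With 2 to 4 genes of different lengths in a group, these counts do not set the roles apart. The groups overlapped gene by gene, since Sox9 had 1 and Fgf9 2, while Foxl2 and Fst had 3 each. That overlap rests on summits less than 1 kb apart. With these joined, Foxl2 and Fst had 1 each, as Sox9 did, and Fgf9 had 2.

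Other genes of gonad formation were taken from 4 lists, 60 genes in all. Of these, 44 (73.3%) had a summit inside or within 10 kb, where 68.3% of protein-coding genes did, and the median was 2 per gene. The list of the bipotential gonad had 11 of 14, led by Igf1r and Six4 with 6 each. The Sertoli and testis list had 10 of 15, led by Sox8, a relative of Sox9, with 5, and Cbln4, Fgfr2, a receptor of FGF9, and Tesc with 4 each. The granulosa and ovary list had 17 of 19, led by the WNT pathway genes Axin2 with 8, Lef1 with 7 and Lgr4, a receptor of R-spondins, with 6. The steroidogenic and interstitial list had 6 of 12, led by the Hedgehog receptor gene Ptch1 with 8, its effector Gli1 with 6 and Pdgfra with 4.

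Within 50 kb, 48 of the 60 had a summit, a share close to the 78.2% of all protein-coding genes. The 12 without one included Lhx9, Nr0b1 and Tcf21 of the bipotential gonad, Fshr, Rhox5 and Sry of the testis list, Bmp2 of the ovary list, and Hsd17b3, Hsd3b1 and Lhcgr of the steroidogenic list. Nr0b1 and Rhox5 are on the X chromosome and Sry is on the Y. Among partners of the members, Amhr2, the receptor of anti-Müllerian hormone, had 3 summits inside or within 10 kb, Lgr5, another receptor of R-spondins, had 2, and Inhba and Inhbb, which encode activin subunits, had 1 and 3. Wnt4, which acts with Rspo1 in the ovary, had 2 where Rspo1 had none. These last 5 genes were chosen after their values were seen.

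**Figure D5:**
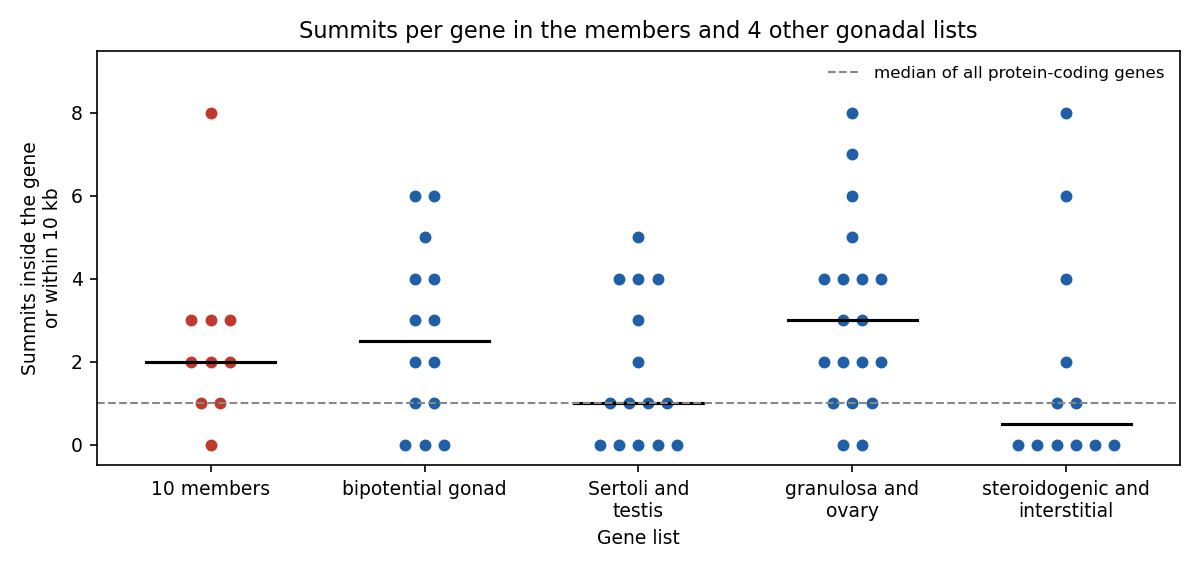
Summits inside the gene or within 10 kb (y axis), 1 point per gene, for the 10 members and the 4 other gonadal lists (x axis), with the median of each as a black bar and that of all protein-coding genes as a dashed line. Medians are 2 for the members, 2.5 for the bipotential gonad, 1 for the Sertoli and testis list, 3 for the granulosa and ovary list and 0.5 for the steroidogenic and interstitial list.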

How the data were processed

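Anti-V5 ChIP and input DNA were sequenced for 5 and 3 libraries, 1 per group. Per the submitters' processing notes, the tools used were MACS2 2.1.1.20160309, HOMER 4.9.1 and bedtools for peaks and intervals, Bowtie 1.1.2 for alignment to mm10, cutadapt 1.9.1 with Trim Galore 0.4.1 for trimming, and SAMtools 1.3 with Picard 2.1.0 for read files. The notes give names and versions without roles, so the roles stated are those these tools are known for. Settings, and how libraries were joined, are not given in the sources used here. The authors deposited summit positions, with start equal to end in all 32927 lines, so a distance can be off by 1 base.

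Genes were taken from the RefSeq table of GRCm38.p6, which gives no strand, so ends are named by lower or upper coordinate. Strand, starts and 300-base windows came from the RefSeq promoter table, which matched 4 of 10 members. Where its windows overlapped on opposite strands, 1841 of 1841 pairs were reverse complements. Motifs were searched as GATA and AGATAA on both strands, and an AGATAA contains a GATA. A summit counted for every gene in reach. The planned distance to the start was replaced by either end.

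Members, lists and alternatives were chosen with earlier results of these data known. Named genes were all members, the gene nearest each summit, the 3 genes with most summits in each list and those with none within 50 kb, some of which are counted but not reported here by name. Counting was tested on simulated positions. Python 3.11.15, numpy 2.4.6, pandas 2.3.3 and matplotlib 3.10.9 were used.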

Additional observations from a re-analysis of the deposited data

How the results depend on the processing

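Of 22 alternative values of the main counts and of the background share, most were within 1.5 times the value reported. The exceptions were the total of summits at 100 kb and at 500 kb, and AGATAA in place of GATA. The number of members with a summit inside or within 10 kb was 9 at 5 kb and 20 kb, by distance to either end only, with summits joined within 1 kb, by nearest protein-coding gene and without summits within 1 kb of another gene's end, and 10 at 100 kb. The background moved too, to 65.6% at 5 kb, 72.0% at 20 kb, 83.5% at 100 kb and 66.5% by distance to either end only. No background was computed with summits joined, by nearest gene or without summits near other gene ends. Over all annotated genes the background at 10 kb was 46.6% in place of 68.3%. The 25 summits inside or within 10 kb became 75 at 100 kb, which takes in more sequence by construction, and 306 at 500 kb, a distance chosen after seeing the data. The total was 23 at 5 kb and 35 at 20 kb. It was 20 with summits joined within 1 kb and 19 without summits within 1 kb of another gene's end. GATA stood in 3 member windows and AGATAA in 1. Within 50 kb, 9 of 10 members had a summit when it counted only for the nearest protein-coding gene, the exception being Rspo1. The share of all protein-coding genes under that rule was not computed, so this count has no background beside it. At single members 20 of 70 alternative values moved by more than 1.5 times. Amh went from 2 to 1 at 5 kb, by nearest gene and without summits near other gene ends. Foxl2 and Nr5a1 each went to 1 without summits near other gene ends. Foxl2 and Fst each went from 3 to 1 with summits joined, and Dmrt1 from 8 to 5 by distance to either end only. Upward, at 20 kb Amh went to 5, Dmrt1 to 13 and Cyp19a1 from 1 to 2. At 100 kb every member but Fgf9 moved upward. No paired analysis was possible because no group has a second library and summits carry no library name. Read depth, which is not known, limits what a missing summit can show.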

Other observations

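Within 500 kb Amh had 121 summits, and 0.411% of protein-coding genes had as many. Rspo1, with none within 10 kb, had 37, above the median of 21 over all protein-coding genes. Nr5a1 had 27, Foxl2 25, Dmrt1 24, Fgf9 20, Wt1 17, Cyp19a1 16 and Fst 12. Sox9 had 7, the fewest of the 10, and 79.4% of protein-coding genes had as many or more. Dmrt1 thus had 16 of its 24 within 50 kb, Amh 12 of its 121 and Rspo1 2 of its 37. The spans counted include the gene itself, 98.7 kb at Dmrt1, 2.44 kb at Amh and 22.7 kb at Rspo1. These counts were not adjusted for the span. The distance was chosen after the counts nearer to the genes were seen.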
